A study of Mus musculus with 4 samples.

Results

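Cells of synovial tissue were selected that carried RNA of the muscle stem cell regulators Pax7, Myod1 and Myf5. A member had at least 2 unique molecular identifiers (UMIs, each a captured RNA molecule) of these 3 genes together, none of the leukocyte gene Ptprc and none of the endothelial gene Cdh5. Cells needed at least 500 UMIs in all and at most 20% mitochondrial UMIs, with no upper limit on detected genes. Of 10136 kept synovial cells, 339 were members: 330 came from TNF- littermates and 9 from TNF+ mice. No cell of the 2 lung libraries met the rule. Because the rule used Pax7, Myod1, Myf5, Ptprc and Cdh5, the levels of these 5 genes describe the selection and are not findings.

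The study used TNF+ mice, whose human TNF transgene leads to inflammatory arthritis and lung vascular disease. TNF- littermates lacked the transgene, and all mice were female and 4 months old. Synovium of 5 to 10 mice per genotype was pooled, digested with collagenase, sorted for viable cells and captured in 1 droplet library per genotype. No difference between genotypes therefore has a replicate check, and every interval given is a 95% interval for counting error only, without the variation between mice or between digests.

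Satellite cells are the stem cells of skeletal muscle and lie between the muscle fibre and its basement membrane. Resting satellite cells express Pax7 and depend on Notch signalling. Myod1 protein accumulates on activation, and Myog marks the start of differentiation, when cells leave the cycle and fuse. Synovium is the lining tissue of joints and is not itself muscle, but muscle inserts close to it. How much muscle stayed attached to the dissected tissue of each genotype was not tested, and a difference in the number of these cells cannot be told apart from a difference in dissection.

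The genes of the rule and the markers given with it lie apart in the mouse genome (GRCm38). Pax7 (ENSMUSG00000028736) spans chr4:139737062-139833528 and Col19a1 (ENSMUSG00000026141) chr1:24261890-24587472, both on the minus strand. Myod1 (ENSMUSG00000009471) spans only chr7:46376474-46379099 on the plus strand, and Myf5 (ENSMUSG00000000435) chr10:107482908-107486134 on the minus strand. Chodl (ENSMUSG00000022860), which encodes a membrane lectin, spans chr16:78930948-78951733. Fgfr4 (ENSMUSG00000005320), a fibroblast growth factor receptor, spans chr13:55152640-55168759. Intronic reads were counted, so a long gene such as Pax7 could collect UMIs differently from a short one such as Myod1, and Pax7 and Myod1 UMIs are compared here within cells only as detected molecules.

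Myod1, Myf5 and Myog proteins bind DNA at E-boxes, so the 250 bases upstream of the RefSeq start (GRCm38.p6) are shown for a gene of the rule and for the most widely detected of the 3 given markers outside it. The windows are chr10:107486135-107486384 for Myf5 (minus strand) and chr16:78930698-78930947 for Chodl (plus strand). Capitals mark the E-box letters CANNTG, which read the same on both strands.
Myf5: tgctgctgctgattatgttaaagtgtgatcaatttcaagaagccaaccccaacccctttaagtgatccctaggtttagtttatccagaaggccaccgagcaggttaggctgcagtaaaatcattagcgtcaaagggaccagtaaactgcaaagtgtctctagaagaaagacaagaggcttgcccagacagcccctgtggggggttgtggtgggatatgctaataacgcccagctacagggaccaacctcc
Chodl: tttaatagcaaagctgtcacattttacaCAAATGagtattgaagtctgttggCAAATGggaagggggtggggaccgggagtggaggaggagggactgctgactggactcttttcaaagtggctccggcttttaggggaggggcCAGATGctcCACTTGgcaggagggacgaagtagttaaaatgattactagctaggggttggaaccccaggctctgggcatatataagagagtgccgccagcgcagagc
The Myf5 window held no match and the Chodl window held 4. CANNTG occurred in 66.2% of all 32851 windows of this length, so a match is common. The narrower form CAGCTG, itself a CANNTG, occurred in the windows of 14.7% of all genes and of 3 (Hs6st3, Mybpc1 and Neu2) of the 11 leading member genes with an entry. These matches are letters in a window and were not measured as bound sites.

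The share of members among kept cells differed between the genotypes by more than the counting error. In the TNF- library, 330 of 6638 kept cells (4.97%, interval 4.46 to 5.52) were members, and in the TNF+ library 9 of 3498 (0.257%, 0.118 to 0.488). The difference was 4.71 percentage points (4.17 to 5.28). The immune rule (at least 2 Ptprc UMIs) and no other class rule was met by 1192 TNF+ and 929 TNF- cells. Among kept cells with no Ptprc UMI the shares were 6.02% of 5484 and 0.428% of 2102, a difference of 5.59 points (4.88 to 6.28).

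Depth and cell quality moved in the same direction. The median depth of kept cells was 13057 UMIs for TNF- and 10204 for TNF+ synovium, and 748 of 4246 TNF+ barcodes against 261 of 6899 TNF- barcodes exceeded the mitochondrial limit. With each cell thinned to 5000 UMIs the member shares were 4.24% and 0.192%. The part of dead or damaged cells in the difference was not tested. Between the libraries, 5 to 21 cell barcodes were shared per pair of libraries, and 5 between the synovium libraries, among them 1 TNF- member.

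The whole libraries showed the same order for genes the rule did not use. Summed over all kept cells, Fgfr4 stood at 15.8 CPM (UMIs of the gene scaled to the summed UMIs of the cells, in parts per 1e6) in TNF- and 0.317 in TNF+ synovium (log2 ratio of TNF+ over TNF- -5.64). Col19a1 stood at 20.5 and 0.655 CPM (-4.97), Calcr at 11.6 and 0.211 (-5.78), and Chodl at 56.1 and 5.49 (-3.35, -3.54 to -3.17). Muscle fibre RNA was lower too: Acta1, skeletal muscle actin, stood at 163 and 6.63 CPM (-4.62) and Ckm, muscle creatine kinase, at 83.2 and 5.92 (-3.81). TNF- members held 73.0% of the Fgfr4 UMIs of their library and 55.0% of the Chodl UMIs, but only 0.592% of the Acta1 UMIs. The fibre RNA thus lay almost wholly outside the members, and its part in the difference between genotypes was not tested.

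The markers outside the rule bore out the label in the TNF- library. Chodl ranged from 0 to 53 UMIs per member with a median of 7 and was present in 317 of 330 members (96.1%). Fgfr4 ranged from 0 to 15 with a median of 2, in 294 members (89.1%), and Col19a1, a collagen, from 0 to 48 with a median of 2, in 226 (68.5%). In fibroblasts of the same library, set by at least 2 Pdgfra UMIs, the shares were 2.09%, 1.11% and 0.457% of 3063 cells, although their median depth of 16379 UMIs exceeded the 12285.5 of members. Cdh15 (M-cadherin), which holds satellite cells to the fibre, was present in 203 members (61.5%) and in 0.424% of fibroblasts. Shares in members were thus far above those in fibroblasts, and the part of free RNA in either was not tested.

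Levels of these markers rose steeply up to the limit of the rule. By ratio the larger step lay between 0 and 1 UMI of the 3 rule genes, below the limit, and the smaller between 1 and 2. Among TNF- cells without Ptprc or Cdh5, Chodl stood at 19.7 CPM in the 4325 cells with no UMI of the 3 rule genes, at 168 in the 66 cells with 1 and at 484 in the 41 cells with 2. Fgfr4 stood at 1.26, 60.1 and 226 CPM in the same cells. Above the limit the levels changed by smaller ratios, with Fgfr4 between 190 and 226 CPM. Chodl lay between 484 CPM (423 to 551) at 2 UMIs and 614 (581 to 649) at 10 or more, intervals that did not overlap. The cells with 1 UMI were mixed: 37.9% of them held Chodl, Pdgfra stood at 298 CPM and Acta1 at 2575.

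**Figure D1:**
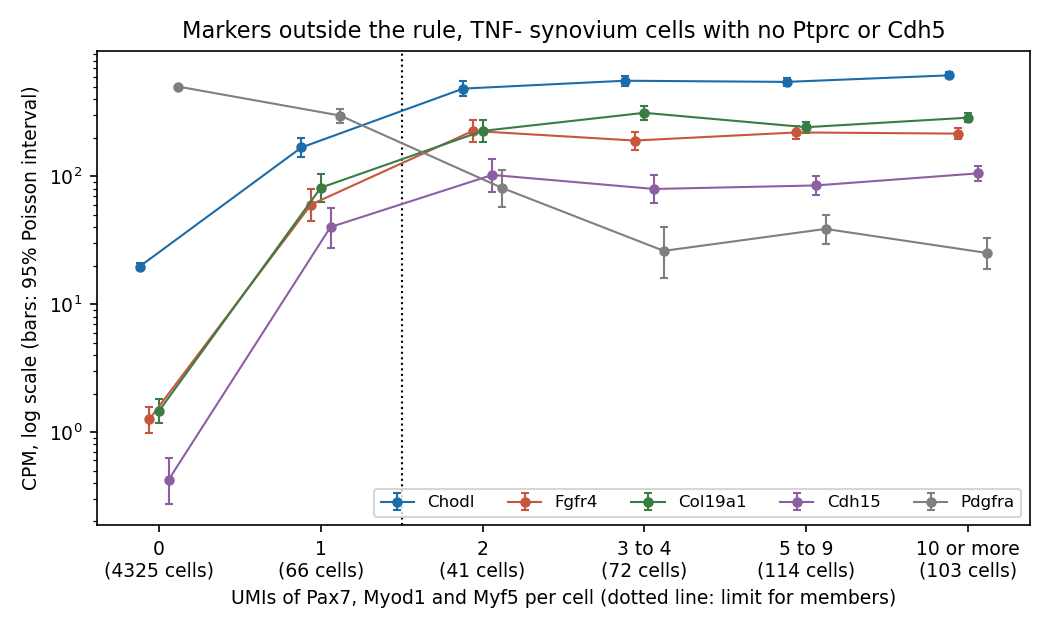
Level (CPM, log scale) of 4 satellite cell markers and of the fibroblast gene Pdgfra against the UMIs of Pax7, Myod1 and Myf5 per cell in TNF- synovium, with 95% Poisson intervals as bars. Right of the dotted limit, Chodl, Fgfr4, Col19a1 and Cdh15 each lie within a narrower range on this scale than left of it. Pdgfra falls from 298 CPM at 1 UMI to 81.0 CPM at 2.

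A selection on 3 other markers, with the same limits on Ptprc and Cdh5, found nearly the same TNF- cells. Fgfr4, Col19a1 and Cdh15 together at 2 or more UMIs picked 351 cells, of which 308 were members (87.7% of those cells and 93.3% of members). In the TNF+ library the same selection picked 6 cells, of which 1 was a member (16.7% of those cells and 11.1% of members).

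Compared with all other kept TNF- cells, members carried a broad satellite cell profile. This is a description, since the cells were chosen on their own RNA. Of 16472 genes with at least 50 UMIs, 7.71% were at least 2-fold higher in members and 29.2% at least 2-fold lower, so that 20.9% of the genes past 2-fold were higher. The ratio itself lay above 0 for 34.1% of genes. Median-of-ratios scaling moved the median log2 ratio of all genes from -0.37 to -0.04 and this share to 36.0%. By marker rule the other cells held 3063 fibroblasts, 929 leukocytes and 567 endothelial cells. Beside that background, 12 of 17 genes of satellite cell surface and adhesion were 2-fold higher and 3 lower (median log2 ratio 2.97). All 3 given markers outside the rule were higher (median 5.44). Fgfr4 stood at 214 CPM in members and 4.50 in the other cells, Cdh15 at 94.3 and 2.37, and Chodl at 571 and 26.7. Sdc4, a heparan sulphate proteoglycan, stood at 1238 against 145 CPM, and Vcam1, an adhesion receptor, at 279 against 31.4. Cd34, used to sort mouse satellite cells but also carried by fibroblasts, was lower in members (135 against 459 CPM, log2 ratio -1.76).

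Regulators of muscle identity beyond the rule were present as well. Of 12 further myogenic transcription factors tested, 9 were 2-fold higher and 1 lower (median 2.85). Pax3, the relative of Pax7, stood at 25.5 CPM (log2 ratio 5.66) and Lbx1, a regulator of migrating limb muscle precursors, at 22.6 (5.63). Both genes were sparse: Pax3 was detected in 54 members and Lbx1 in 82. Eya1 stood at 56.3 CPM (3.89) and Msc at 45.6 (2.88).

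Among the genes with the highest lower bound of the ratio, Calcr, the calcitonin receptor and a gene of the quiescence list, led with 166 CPM in members and 2.78 in the other cells (5.90, 5.69 to 6.11). Asb5 stood at 943 CPM (5.58) in 268 members and Hs6st3, a heparan sulphate sulphotransferase, at 966 (5.37) in 292. Gdnf, a neurotrophic factor, stood at 46.4 CPM (6.02) but was present in only 51 members. Vgll2, a cofactor of muscle transcription (120 CPM, 5.76), Erfe (74.0, 5.67), Neu2 (33.1, 5.82), Chrdl2 (111, 5.51) and Mybpc1 (85.9, 5.19) were also among them. Gdnf and Neu2 thus reached their ratios from a small part of the members, whereas Asb5 and Hs6st3 were carried by most.

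**Figure D2:**
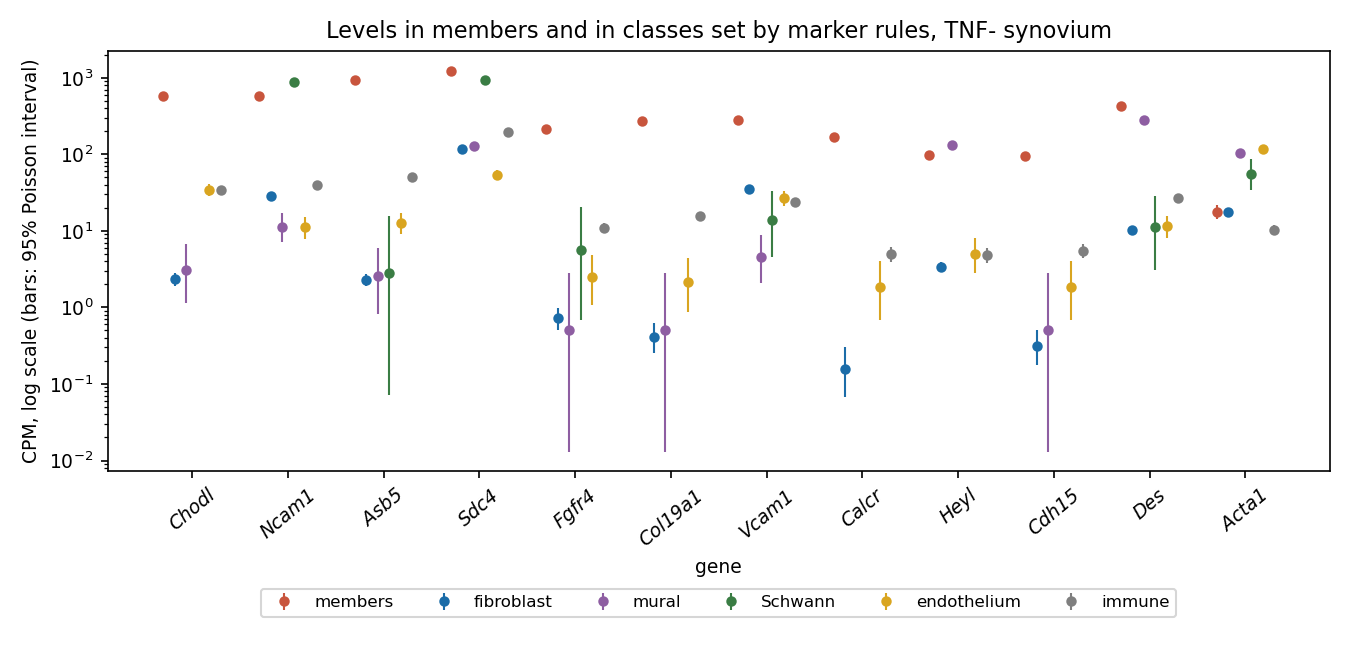
Level (CPM, log scale, with 95% Poisson intervals as bars) of 12 genes in TNF- members and in 5 classes set by marker rules. No point is drawn at 0. Members lie highest for Chodl, Asb5, Sdc4, Fgfr4, Col19a1, Vcam1, Calcr, Cdh15 and Des, Schwann-rule cells lie above them for Ncam1 and mural cells for Heyl, and Acta1 is not raised in members.

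Genes tied to the resting state were uneven. Of 26 quiescence and Notch genes, 11 were 2-fold higher and 2 lower (median 0.71). Heyl, a Notch target, stood at 96.7 CPM (3.67), Notch3 at 186 (2.75), the growth regulator Peg3 at 363 (2.75) and the adhesion protein gene Tenm4 at 463 (4.59). Heyl was not particular to members, as mural cells held 131 CPM. Schwann-rule cells held 886 CPM of Ncam1 against 579 in members.

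Differentiation and fibre genes were mostly low in members. Des, encoding the muscle intermediate filament desmin, stood at 431 CPM (3.82), and Chrna1, a subunit of the muscle acetylcholine receptor, at 39.6 (5.14). Of 12 genes of commitment and fusion, 4 were 2-fold higher and 3 lower. The fusion genes Mymk and Mymx had 0 UMIs in members. Of 15 mature fibre genes, 13 were 2-fold lower and 1 higher (median -3.16). Acta1 was present in 50 members (15.2%), close to the 14.3% of fibroblasts, a class that should lack it. The part of free RNA in these shares was not tested.

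Signs of division were few. Of 330 members, 5 (1.52%, 0.494 to 3.50) held at least 2 of 9 mitotic genes, against 0.620% of fibroblasts and 11.7% of leukocytes. Of 18 cell cycle genes, 2 were 2-fold higher and none lower (median 0.15). Growth genes were mixed, with 3 of 18 higher and 6 lower (0.38). Fgfr1 stood at 767 CPM (1.34) and Id3, an inhibitor of myogenic factors, at 1376 (0.92).

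Most matrix and complement genes were lower in members than in the other cells. Of 20 matrix genes, 18 were 2-fold lower and only Col19a1 higher (median -1.91). Of 15 complement genes, 13 were lower and 1 was higher. C3, the central complement component, stood at 64.7 against 901 CPM (-3.80), and Serping1, the C1 inhibitor, at 295 (-1.30). Of 18 TNF and cytokine receptor genes, 8 were lower and 1 higher (-0.42). The one higher gene was Tnfrsf12a, the receptor of TWEAK, at 540 CPM (2.40). The TNF receptor Tnfrsf1a stood at 86.1 CPM (-0.11) and Tnfrsf1b at 9.24 (-2.10). Immediate-early and stress genes were near the level of the other cells, with 1 of 22 higher and 2 lower (-0.10).

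Markers of other cell types were low but not absent. All 6 fibroblast, 6 mural and 4 erythroid markers tested were 2-fold lower in members, as were 4 endothelial markers beside Cdh5 and 5 immune markers beside Ptprc, the pair of genes that the rule set to 0. Summed fibroblast markers stood at 720 CPM against 5079, the 5 immune markers without Ptprc at 30.4 against 3919 and erythroid markers at 0.822 against 575. Of 5 tendon markers 3 were lower, and of 6 Schwann markers 3 were lower and 1 higher. Of 2 cartilage or bone markers tested 1 was higher and 1 lower, and no adipocyte marker reached 50 UMIs. Dcn, an abundant fibroblast RNA, had a median of 1 UMI per member and reached 432 in a single member. In all, 17 members also met the fibroblast (12), mural (3) or Schwann (3) rule. Leaving these 17 members out turned the sign of 4 named ratios past 2-fold between the states below, those of C3, Stmn1, Thbs4 and Top2a.

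Within the TNF- members, Pax7 without Myod1 was the most frequent state, and cells with both genes nearly as frequent. Pax7 without Myod1 was found in 159 members (48.2%, 42.7 to 53.7) and both genes in 139 (42.1%, 36.7 to 47.7). Myod1 without Pax7 was found in 20 (6.06%, 3.74 to 9.21) and neither, so that Myf5 alone met the rule, in 12 (3.64%, 1.89 to 6.27). These shares depend on depth. With 5000 UMIs per cell, which left out 13 shallower members, the 4 shares became 47.6%, 22.7%, 11.7% and 18.0%. In the fibroblasts that were no members, a choice that itself limits these genes, Pax7 was detected in 0.326% and Myod1 in 0.359% of cells. The part of free RNA in these classes was not tested.

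Pax7 ranged from 0 to 45 UMIs per member with a median of 3, and Myod1 from 0 to 47 with a median of 0. By the larger of both counts, 231 members leaned to Pax7, 69 to Myod1 and 30 were tied. Of the 69 Myod1-leaning members 49 still held Pax7, and of the 231 Pax7-leaning members 72 held Myod1. Myf5 was detected in 168 of the Pax7-leaning and 41 of the Myod1-leaning members. Median depth was 12268 UMIs in Pax7-leaning and 13864 in Myod1-leaning members.

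**Figure D3:**
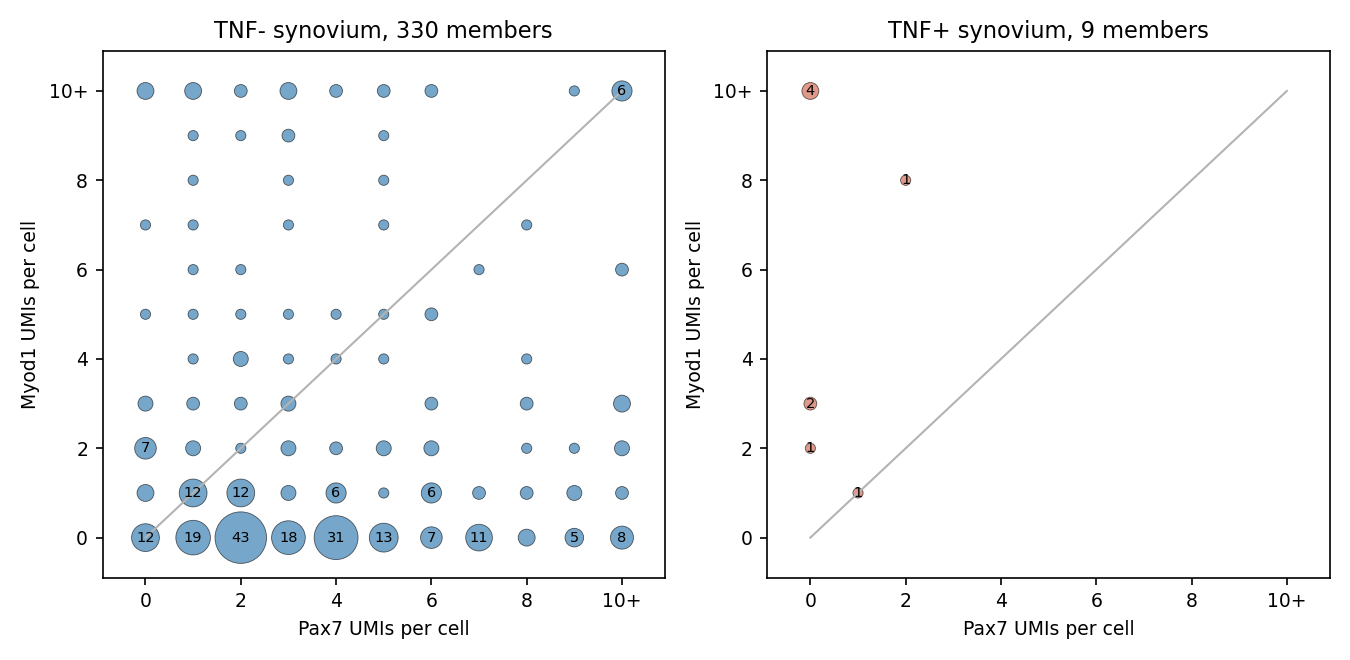
Pax7 against Myod1 UMIs per member (10 stands for 10 or more), with circle area proportional to the number of members and the line marking equal counts. TNF- members (left) lie along the Pax7 axis with a scatter up to high Myod1, and the 9 TNF+ members (right) lie on or above the line.

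Myod1-leaning members were compared with Pax7-leaning members over 7276 genes with at least 50 UMIs. At least 2-fold higher in Myod1-leaning members were 1.42% of genes and 2-fold lower 3.85%. The interval lay above 0 for 8.88% and below 0 for 13.6%, and the ratio itself was below 0 for 54.2%. Cells of a library are not replicates, and the intervals treat UMIs as independent, so genes with a few very high cells are named as such.

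Immediate-early and stress genes were lower in Myod1-leaning members almost as a group. Of 22 genes 21 lay below 0, 20 with their interval (median -0.47, against -0.04 over all genes). In Pax7-leaning members Fos ranged from 0 to 396 UMIs with a median of 14, and in Myod1-leaning members from 0 to 398 with a median of 4. The ranges overlapped fully, and the summed level was 2576 against 1277 CPM (log2 ratio -1.01, -1.10 to -0.93). Jun had medians of 12 and 6 UMIs and levels of 1674 and 919 CPM (-0.87). Egr1 had medians of 22 and 15 UMIs and levels of 2366 and 1368 CPM (-0.79). The heat shock genes Dnajb1 (-0.98) and Hspa1a (-0.82) followed. The exception was Myc, at 219 CPM in Pax7-leaning and 287 in Myod1-leaning members (0.39, 0.19 to 0.58). Such genes are known to respond to tissue digestion, and the part of digestion in this difference was not tested.

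**Figure D4:**
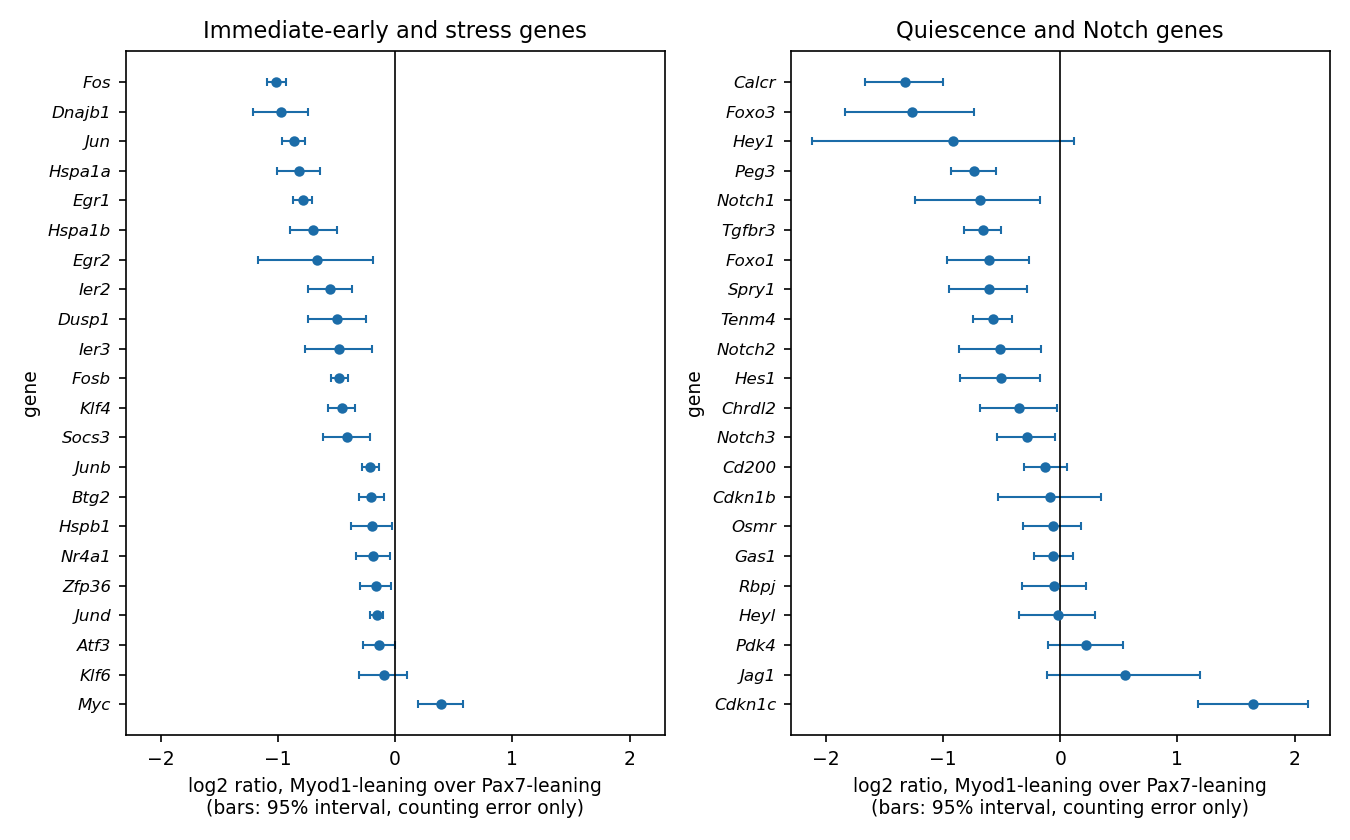
Log2 ratio of Myod1-leaning over Pax7-leaning TNF- members for each tested immediate-early and stress gene (left) and each tested quiescence and Notch gene (right), with 95% intervals for counting error as bars. In the left panel 21 of 22 points lie left of 0 and Myc lies right of it, and in the right panel 19 of 22 lie left of 0.

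Quiescence and Notch genes leaned the same way. Of 22 tested, 19 lay below 0, 12 with their interval (median -0.43). Foxo3, a transcription factor that keeps stem cells at rest, stood at 72.7 CPM in Pax7-leaning and 30.2 in Myod1-leaning members (-1.27, -1.84 to -0.74). Peg3 stood at 412 and 247 CPM (-0.73), Tgfbr3 at 570 and 361 (-0.66) and Tenm4 at 512 and 343 (-0.58). Spry1, an inhibitor of growth factor signalling, stood at 130 and 85.2 CPM (-0.61). Calcr stood at 198 and 78.8 CPM (-1.33), but 1 cell with 156 UMIs held 20.5% of its UMIs, and it was detected in 50.6% and 46.4% of the cells. Notch1 (-0.69), Notch2 (-0.51) and Hes1 (-0.51, but 0.32 for Myod1 without Pax7 against Pax7 without Myod1) lay below 0 with their intervals, whereas the target Heyl was level at 98.6 and 97.1 CPM (-0.02, -0.35 to 0.30). Cdkn1c, a cell cycle inhibitor, lay above 0 (1.64), with 33.5% of its UMIs in 1 cell.

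None of 15 surface markers tested was 2-fold apart between the states, and their median was -0.09, with 9 of 15 below 0. For Myod1 without Pax7 against Pax7 without Myod1, 13 of 15 lay below 0 (median -0.30). In that comparison all 3 given markers outside the rule also lay below 0 (median -0.57). Fgfr4 stood at 212 CPM in Pax7-leaning and 226 in Myod1-leaning members (0.10, -0.12 to 0.31), and Sdc4 at 1230 and 1253 (0.03, -0.06 to 0.11). Chodl was slightly lower in Myod1-leaning members, 500 against 603 CPM (-0.27, -0.41 to -0.13). Met, the receptor of hepatocyte growth factor, was higher, 106 against 73.6 CPM (0.53, 0.20 to 0.85). The matrix list had a median of -0.02 (19 tested), but of 1.14 for Myod1 without Pax7 against Pax7 without Myod1, where 3 of 18 lay below 0 and the fibroblast markers had a median of 2.03. In that list Col19a1 stood at 303 and 173 CPM (-0.81) and Lama2, a laminin chain of the muscle basement membrane, at 636 and 403 (-0.66). Of 9 myogenic factors tested 5 lay below 0, among them Eya1 with 64.8 and 25.7 CPM (-1.34) and Msc with 53.4 and 26.6 (-1.01).

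Genes of commitment were higher in Myod1-leaning members, but in part through single cells. All 7 tested lay above 0, as did 45.8% of all genes, and 5 did so with their interval (median 0.51). Cdkn1a, the inhibitor p21, stood at 229 CPM in Pax7-leaning and 343 in Myod1-leaning members (0.58, 0.40 to 0.76), with medians of 1 and 2 UMIs. Des stood at 420 and 483 CPM (0.20) and Acta2, smooth muscle actin, at 97.1 and 236 (1.28). For Myod1 without Pax7 against Pax7 without Myod1 the ratios were 0.01 for Cdkn1a, -0.15 for Des and 0.20 for Acta2. Without members that met another class rule Acta2 stood at 0.40 and Cdkn1a at 0.42. Summed mural markers stood at 130 CPM in Myod1-leaning and 28.7 in Pax7-leaning members and fibroblast markers at 889 and 712. Both mural markers tested, Rgs5 (4.04) and Myh11 (5.92), were higher, with a median of 4.98 and of 2.76 without their top cells. Col1a1 stood at 0.72 and, without members that met another class rule, at -2.78. The part of these cells in the result was not tested. Ttn had 92.3% of its UMIs in 1 cell, and without that cell its ratio was -0.83. All 5 mature fibre genes tested (median 1.24) and all 4 cell cycle genes tested (0.94) lay above 0, and without the top cell of each gene 4 of 5 and 2 of 4 did.

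Growth genes had a median of -0.08 (14 tested) and complement genes of -0.15 (7 tested). For Myod1 without Pax7 against Pax7 without Myod1 these medians were 0.12 (14 tested) and 0.68 (6 tested, 1 of them below 0). Cytokine receptor genes had a median of 0.11 (15 tested). Among these Tnfrsf12a stood at 489 CPM in Pax7-leaning and 682 in Myod1-leaning members (0.48, 0.35 to 0.61), and at 5000 UMIs per cell it was detected in 65.5% and 85.3% of them. Tnfrsf1a (0.35) and Il1r1 (0.59) also lay above 0 with their intervals, and Tgfbr1 (-0.53) below.

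The ordering along Myod1 was not a steady slope. Members were divided by the share of Myod1 in their Pax7 and Myod1 UMIs: 159 with no Myod1, 61 with a share up to 1/3, 48 above that up to 2/3 and 50 beyond. Fos stood at 2373, 2948, 1878 and 1505 CPM in this order and Jun at 1657, 1724, 1111 and 1016. Members with little Myod1 thus lay no lower in Fos and Jun than those without it. Calcr stood at 188, 232, 138 and 70.7 CPM, Peg3 at 373, 468, 359 and 225, and Col19a1 at 277, 333, 306 and 150. Cdkn1a was flat over the lower 3 groups (214, 240 and 211 CPM) and stood at 450 in the group with the most Myod1. These are summed levels: 1 Myod1-leaning member held 65 of the 374 Cdkn1a UMIs of that state. Cdkn1a was detected in 56.5% of Myod1-leaning and 56.3% of Pax7-leaning members. Myc stood at 212, 212, 250 and 300 CPM.

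**Figure D5:**
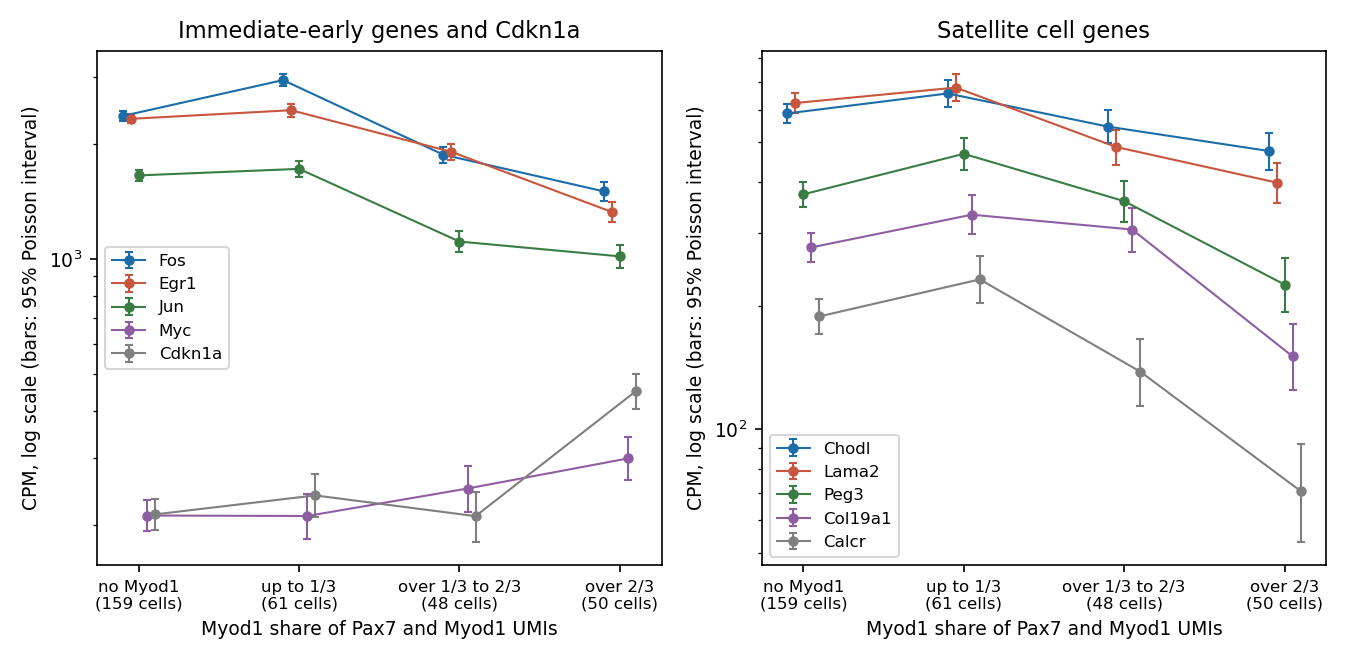
Level (CPM, log scale, with 95% Poisson intervals as bars) of 5 immediate-early or cell cycle genes (left) and 5 satellite cell genes (right) in TNF- members by the share of Myod1 in their Pax7 and Myod1 UMIs. Fos, Jun, Calcr, Peg3 and Col19a1 are highest at a share up to 1/3 and lowest beyond 2/3. The summed level of Cdkn1a stands out in the last group, although Cdkn1a was detected in 56.5% of Myod1-leaning and 56.3% of Pax7-leaning members.

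Few members held Myog. It was detected in 3 of 330 (0.909%, 0.188 to 2.63), with 7, 3 and 1 UMIs, all of them Myod1-leaning. None of these 3 cells held a Chodl UMI. The cell with 7 Myog UMIs held 53 UMIs of Cdkn1c, and the cell with 3 held 393 of Ttn, 30 of Mef2c and 21 of Acta1. Among the 231 Pax7-leaning members Myog was not detected, a limit of 1.30% of cells with a UMI at 3 counts and an exact upper bound of 1.58%.

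Genes that led the comparison of states by the lower bound were rarely shared by many cells. The 12 leading Myod1-leaning genes (Ttn, Neb, Fabp4, Rgs5, Mef2c, Igfbp3, Myl9, Myl1, Enoph1, Atp2a1, Ankrd23 and Sox11) each had between 38.5% and 92.3% of their UMIs in 1 cell. Without that cell Rgs5 (2.41), Mef2c (2.19), Sox11 (1.84) and Igfbp3 (1.59) kept intervals above 0. For the other 8, among them Neb (0.46) and Atp2a1 (0.24), the interval then included 0. With all cells, Rgs5, Mef2c, Sox11 and Igfbp3 were detected in only 6, 3, 6 and 4 of 69 Myod1-leaning members. In the 231 Pax7-leaning members they were detected in 11, 7, 11 and 12. The leading Pax7-leaning genes had a broader base: Pecam1 was detected in 35 of 231 Pax7-leaning and 4 of 69 Myod1-leaning members (-3.92, and -3.70 without its top cell). Zmym6 was detected in 37 and 1 (-4.64), Pde4c in 43 and 4, Slpi in 27 and 2 (-2.66) and Cx3cr1 in 40 and 7 (-2.38). Ube2u was detected in 32 and 0 and Pou2f2 in 20 and 1 (-4.55). Ptn (80.5%), Itgbl1 (57.6%), Opcml (45.2%) and Mgp (33.4%) had much of their UMIs in 1 cell.

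The 9 TNF+ members went against the label in part. Myod1 accounted for nearly all of their selection, with 48, 41, 18, 14, 8, 3, 3, 2 and 1 UMIs per cell. Pax7 was present in 2 of them (2 and 1 UMIs) and Myf5 in 2 (2 and 1). Fgfr4 had no UMI in any, where 3 UMIs would be 62.0 CPM and the exact upper bound was 76.2 CPM, against 214 in TNF- members. Col19a1 had 3 UMIs in 2 cells and Chodl 6 UMIs in 5 cells (124 CPM, 45.5 to 270, against 571). They are therefore called Myod1-bearing cells here. By the larger count 8 leaned to Myod1 and 1 was tied. Myod1 stood at 2852 CPM in the 9 cells, with 48 and 41 of its 138 UMIs in 2 cells. As the rule used Myod1, this level describes the selection and is not a finding.

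Among the other genes counted in these 9 cells, Des stood above and Fos below the level in TNF- members. Des had 44 UMIs in 7 of them (909 CPM, 661 to 1221, against 431 in TNF- members) and Sdc4 had 75 UMIs in all 9 (1550 against 1238 CPM). Fos had 12 UMIs in 4 cells (248 CPM, 128 to 433, against 2233) and Egr1 58 in 8 (1199 CPM, 910 to 1550, against 2084). In Myod1-leaning TNF- members, closer to them by state, Fos stood at 1277 CPM, Egr1 at 1368 and Des at 483. Fos was also detected in fewer TNF+ than TNF- fibroblasts (69.4% against 96.4%) and leukocytes (60.1% against 83.7%), but not endothelial cells (81.7% against 80.8%). Pdgfra and Myog had no UMI and Cd74 had 1. Acta1 had 37 UMIs, 32 of them in the cell with 48 Myod1 UMIs, whose mitochondrial share was 18.6%. Total depth ranged from 3556 to 8271 UMIs, below the TNF- median of 12285.5. With so few cells of 1 pool, none of these values can be given as a difference between genotypes.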

How the data were processed

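The deposited values are raw UMI counts for each gene in each cell of 4 droplet 3' libraries, made by Cell Ranger 7.0.1 (submitters' processing notes) on the 10x mm10 reference at default settings. That version counts intronic reads. Transgene RNA was not measured, as that reference holds mouse genes. Each matrix lists 32285 genes.

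Members, gene lists and tests were chosen with earlier results of these data known. UMIs were summed over cells and divided by all UMIs (CPM). Intervals at 95% were exact Poisson for CPM, Clopper-Pearson for shares, conditional binomial for log2 ratios and Newcombe for differences of shares. Ratios used genes with at least 50 UMIs over both groups and a 2-fold limit, and a count of 0 was set to a floor of 3 UMIs. No test across samples was possible with 1 library per group. Comparison classes were set on raw UMIs in cells that were no members: fibroblast (Pdgfra at least 2), mural (Rgs5, Myh11 and Kcnj8 at least 3), Schwann (its markers at least 3), endothelium (Cdh5 at least 2) and immune (Ptprc at least 2). Cells that met 2 of these rules were left out.

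Named genes were those of the fixed lists, the 15 genes with the highest lower bound in members with at least 100 UMIs, and the 12 genes per state with the bound farthest from 0, with at least 50 UMIs in at least 10 cells. Some genes that these rules name are not reported here. Cells were thinned at random to 5000 UMIs, or 2000 as an alternative, and shallower cells were left out. Doublets were not removed. As an alternative the highest Scrublet scores were, leaving 6272 of 6638 TNF- and 3379 of 3498 TNF+ synovial cells. The other alternatives concerned the limits on UMIs, genes and mitochondrial share, the rule genes, scaling, minimum UMIs, cell weights and state definition. The ratio script was tested on simulated data. Python 3.11.15, numpy 2.4.6, scipy 1.17.1, pandas 2.3.3 and scanpy 1.11.5 were used. Gene positions came from GENCODE (GRCm38), found for 276 named genes.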

Additional observations from a re-analysis of the deposited data

How the results depend on the processing

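No paired analysis was possible because each group has 1 library. Some alternatives (leaving out members that meet another class rule, leaving out for each gene the cell with the most UMIs, and other marker genes in the rule) were chosen after seeing the data. The TNF- member share of 4.97% became 5.97% with 1 rule UMI, 4.35% with 3, 6.01% without limits on Ptprc and Cdh5, 6.02% among cells without Ptprc and 4.24% at 5000 UMIs per cell. The TNF+ share stayed between 0.172% and 0.429%. At 5000 UMIs the shares with both genes, Myod1 only and neither became 22.7%, 11.7% and 18.0%. At 2000 UMIs Pax7 only, both, Myod1 only and neither became 33.1%, 8.51%, 10.94% and 47.4%, since fewer UMIs per cell lose detections.

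The 103 genes 2-fold higher in Myod1-leaning members became 268 for Myod1 without Pax7 against Pax7 without Myod1, 296 at a minimum of 20 UMIs, 15 at 200 UMIs and 66 without the top cell of each gene. The 280 genes 2-fold lower became 822 at 20 UMIs, 34 at 200 UMIs and 186 with 200 to 5000 genes per cell. Of the genes called, 26.9% were higher in Myod1-leaning members, with 42.4% for the stricter states and 17.0% (70 higher, 341 lower) without members that meet another class rule. The 1270 genes higher in members became 2111 with median-of-ratios scaling, which moved the median of all genes from -0.37 to -0.04 and the share of higher calls from 20.9% to 36.0%, and 807 at 200 UMIs. Of the named ratios between states that were past 2-fold, those turned without the top cell were Acta1 (-0.37), Ankrd23 (-0.34), Fabp4 (-0.18), Pi16 (0.10), Postn (-0.39), Stmn1 (-1.27), Thbs4 (-3.50) and Ttn (-0.83). Without members that meet another class rule those of C3 (-0.69), Stmn1 (-1.39), Thbs4 (-3.43) and Top2a (-4.25) turned, as did Fgf2 with the stricter states (0.31) and Mgp without the highest Scrublet scores (1.13). Causes were not tested. Of 22 immediate-early and stress genes, 21 lay below 0 in Myod1-leaning members also without the top cell, with median-of-ratios scaling and with equally weighted cells, and 20 with the stricter states. For quiescence and Notch genes the numbers were 19 of 22 as reported and 16, 18 and 16 of 22 and 16 of 21 under these alternatives. With 1 pooled library per genotype, counting intervals hold no variation between mice.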

Other observations

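Cells with the rule genes that also held leukocyte RNA were excluded from the members, and they were frequent. In TNF- synovium 399 cells had at least 2 UMIs of Pax7, Myod1 and Myf5, and 69 of them were removed, 59 for Ptprc and 14 for Cdh5 (4 for both). Of the 399 cells, 41 (10.3%, 7.48 to 13.7) held at least 5 Ptprc UMIs. The same share was 1.19% in cells meeting the fibroblast rule, 1.89% in mural, 1.52% in Schwann and 2.74% in endothelial cells. The 41 cells had a median of 47769 UMIs and 6389 genes against 12285.5 and 2866 in members. All of them held Chodl, with a median of 11 UMIs. Their median was 427 UMIs for Cd74 and 159 for H2-Aa, both of antigen presentation, 91 for Lyz2 (lysozyme), 10 for the macrophage receptor Mrc1 and 13 for Cd209a. Of the 41 cells, 28 were among the highest Scrublet scores. Whether they were doublets or cells in contact was not tested. In TNF+ synovium 14 cells had the rule genes and 5 were removed, 4 for Cdh5 and 1 for Ptprc.

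A set of 7 genes (Pecam1, Zmym6, Pou2f2, Pde4c, Slpi, Cx3cr1 and Ube2u) was chosen after seeing that they led in Pax7-leaning members, so that the following is a description and no test. At least 3 of them were found in 34 of 330 members (10.3%, 7.24 to 14.1), in 31 of 231 Pax7-leaning and in 0 of 69 Myod1-leaning members (exact upper bound 5.21%), which the choice of genes favours. In these 34 and the other 296 members Chodl stood at 536 and 576 CPM, Col19a1 at 275 and 271 and Calcr at 165 and 166. The set was not particular to members, as 464 of 3063 fibroblasts (15.1%), 123 of 929 leukocytes (13.2%) and 42 of 567 endothelial cells (7.41%) also held at least 3 of the genes. Of the 34 members, 4 met another class rule and 7 were among the highest Scrublet scores. The source of these genes was not tested.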
